A study of Mus musculus with 380 samples.

Results

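The 6 genes described here are *Psmb11*, *Prss16*, *Ctsl*, *Cd83*, *Ly75* and *Tbata*, genes of cortical thymic epithelial cells (cTECs), most of which act in the processing or uptake of antigen. They were taken by name from the 30324 genes in the tables, and all 6 passed the filter on low counts in every comparison. For each gene, its level per mouse, the share of cells in which it was detected and its detection together with the other 5 in single cells are given across ages, genotypes and sorts.

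The study examined thymic epithelial cells (TECs), sorted as EpCAM+ CD45- single cells into wells and sequenced by CEL-Seq2, a method that counts transcript 3′ ends with unique molecular identifiers (UMIs). It followed the TEC compartment from embryo to old age, and asked how continuous Fgf7 signalling alters it. The tables hold 380 libraries of 96 cells from 10 mice as the labels tell them apart, of which 378 libraries and 25154 cells were used here. Sequencing yielded 9449990 to 40884500 transcripts in the unsorted cells of a mouse.

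Wild-type mice on a C57BL/6 background were 1 female each at E16.5, P0 and 1 year of age, and 4 mice at P28 (4 weeks). These 4 were 2 males, one without and one with lineage barcodes, and 2 barcoded females, called A and B. Of the 20 unsorted libraries of the non-barcoded male, 4 are labelled as a biological and 4 as a technical replicate, with no animal number, and all were summed into 1 mouse. The 2 transgenic mice at P28 and the 1 at 1 year (a male labelled C57BL/6) carried *Fgf7* under the *Foxn1* promoter, which is active in TECs themselves, so that every comparison of genotype concerns a growth factor made by the epithelium. Of the transgenic P28 mice, one was a non-barcoded male, labelled as from an FVB/N background backcrossed to C57BL/6J, and the other a barcoded female labelled C57BL/6. The libraries of the male carry no animal number and were taken as 1 mouse. All mice other than the 2 non-barcoded males carried *hU6-sgRNA-Hprt*, *Foxn1-cre* and *Rosa26-LSL-Cas9-EYFP*, which scar the *Hprt* gene in TECs, and the RNA of each of their wells was split between the transcriptome and the scar (split-volume protocol). For the 2 non-barcoded males the whole volume served the transcriptome (whole-volume protocol). Additional libraries held cells sorted for Ly51, a cortical surface protein encoded by *Enpep*, from 3 wild-type P28 mice and the 1-year wild-type mouse, and for binding of the lectin UEA-1, a medullary marker, from the P0 mouse and the non-barcoded P28 male. Ages and genotypes with 1 mouse have no replicate, and all comparisons of age use the same 4 P28 mice.

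In the thymic cortex, TECs present self-peptides to developing T cells, and cells whose receptors bind these peptides weakly survive, a step called positive selection. cTECs make these peptides with an unusual set of proteases. *Psmb11* encodes β5t, the catalytic subunit of the thymoproteasome, which produces peptides for MHC class I. *Prss16* encodes thymus-specific serine protease and *Ctsl* the lysosomal protease cathepsin L, both of which shape peptides for MHC class II, while *Cd83* encodes a membrane protein that keeps MHC class II at the cell surface. *Ly75* encodes the endocytic receptor DEC-205, and *Tbata* the thymus, brain and testes associated protein, also known as Spatial.

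On the mouse assembly GRCm38, *Psmb11* lies at chr14:54621433-54629556 on the plus strand, *Prss16* at chr13:22002173-22009742 on the minus strand, *Ctsl* at chr13:64359337-64370890 on the minus strand, *Cd83* at chr13:43784775-43803132 on the plus strand, *Ly75* at chr2:60292103-60383303 on the minus strand and *Tbata* at chr10:61171954-61188841 on the plus strand. All 6 are annotated as protein-coding. Since the 6 genes were higher together in Ly51+ cells and at P0, the promoters of the 4 genes that could be matched in RefSeq (GRCm38.p6) are shown, each from 250 bases before to 50 bases after the start of the gene, written 5′ to 3′ on the strand of the gene. The starts are those of RefSeq, and the windows of *Psmb11* and *Ctsl* lie within the gene limits given above. Capitals mark GACGC, the core letters bound by Foxn1, the transcription factor of TECs, and CCAAT, each on either strand.

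*Psmb11*, chr14:54625060-54625359, plus strand: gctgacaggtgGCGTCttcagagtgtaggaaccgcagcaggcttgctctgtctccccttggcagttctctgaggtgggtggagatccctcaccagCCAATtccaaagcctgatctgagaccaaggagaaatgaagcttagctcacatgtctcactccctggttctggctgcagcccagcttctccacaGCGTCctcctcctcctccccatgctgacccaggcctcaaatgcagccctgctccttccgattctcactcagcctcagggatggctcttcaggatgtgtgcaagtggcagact
*Ctsl*, chr13:64370471-64370770, minus strand: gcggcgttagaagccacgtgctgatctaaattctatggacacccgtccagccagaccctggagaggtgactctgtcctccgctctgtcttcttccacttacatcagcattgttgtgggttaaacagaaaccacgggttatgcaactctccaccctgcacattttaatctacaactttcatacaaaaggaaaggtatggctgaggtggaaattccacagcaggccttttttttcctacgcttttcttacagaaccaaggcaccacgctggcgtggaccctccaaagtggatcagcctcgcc
*Ly75*, chr2:60383224-60383523, minus strand: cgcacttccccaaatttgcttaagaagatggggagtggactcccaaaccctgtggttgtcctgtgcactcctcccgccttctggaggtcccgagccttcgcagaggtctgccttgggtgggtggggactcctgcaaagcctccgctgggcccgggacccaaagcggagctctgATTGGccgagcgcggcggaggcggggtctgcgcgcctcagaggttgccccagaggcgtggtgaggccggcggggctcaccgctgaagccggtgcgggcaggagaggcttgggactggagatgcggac
*Tbata*, chr10:61171714-61172013, plus strand: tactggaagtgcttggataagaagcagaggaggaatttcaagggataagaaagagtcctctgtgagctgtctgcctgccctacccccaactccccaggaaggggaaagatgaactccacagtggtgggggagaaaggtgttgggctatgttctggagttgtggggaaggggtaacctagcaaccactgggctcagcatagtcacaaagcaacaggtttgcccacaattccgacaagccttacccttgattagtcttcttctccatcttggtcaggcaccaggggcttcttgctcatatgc

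The *Psmb11* window held GACGC at 2 positions, both on the opposite strand (GCGTC), the nearer of them 62 bases before the start, and CCAAT between them. Of 32851 mouse promoter windows of this length, 27.2% held GACGC at least once and 8.15% at least 2 times. The *Ly75* window held CCAAT on the opposite strand (ATTGG) 77 bases before the start, as 37.4% of all windows held CCAAT. Neither motif was found in the windows of *Ctsl* and *Tbata*, and TATAAA, searched likewise and present in 13.6% of all windows, was in none of the 4. None of these motifs overlapped another. These matches describe letters in a window, not binding sites.

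Levels are given as CPM, the transcripts of a gene per 1000000 counted transcripts over all kept cells of a mouse, without spike-ins, mitochondrial genes and *Hprt*. Labels were first checked on the transgene, since the libraries of the barcoded transgenic female and of the 1-year transgenic mouse are transgenic by their genotype label but described as wild-type cells. The genotype label was used. *Fgf7* reached 47.4 and 100 CPM in the transgenic P28 mice and 20.3 CPM in the 1-year transgenic mouse, against 0.395 to 1.73 CPM in the 4 wild-type P28 mice and 6.31 CPM in the 1-year wild-type mouse. *Enpep* was higher in Ly51+ than in unsorted cells (log2 fold change 3.004, s.e. 0.23, adjusted p = 0.000755). Unsorted cells of every mouse held RNA of 5 epithelial genes (*Epcam*, *Krt8*, *Krt18*, *Cdh1* and *Cldn4*) at 2867 to 8864 CPM in sum, and of 5 endothelial genes at 3.73 to 20.8 CPM. The unsorted libraries labelled as the non-barcoded wild-type male held *Xist*, an RNA of female cells, at 51.2 CPM, against 0.241 CPM in the barcoded male and 161 and 248.7 CPM in the females. The 4 libraries labelled as a biological replicate had 382.3 CPM and the other 16 had 1.57 CPM, so that these 4 went against their label. Without them the non-barcoded male had 76.8 CPM of *Psmb11*, 210.2 of *Prss16*, 590 of *Ctsl*, 25.3 of *Cd83*, 47.02 of *Ly75* and 517 of *Tbata*, and was still the lowest wild-type mouse for each gene. In its Ly51+ and UEA-1+ libraries *Xist* was at 27.3 and 8.40 CPM. Fits, P28 means and pairs of genes are therefore also given without this mouse. The UEA-1+ values at P28 come from it alone and have no such check.

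*Psmb11* was highest around birth. Its level was 1016 CPM at E16.5 and 1098 CPM at P0. At P28 it was 81.8, 149.2, 204.5 and 413 CPM in the non-barcoded male, the barcoded male and females A and B, a mean of 212 ± 142.9 CPM (SD, n = 4), and at 1 year it was 150 CPM. Both perinatal mice lay above all 4 P28 mice, and the 1-year mouse lay within their range. The exact 95% Poisson intervals of the 1-year mouse (141.4 to 158.5 CPM) and of the barcoded male (145.1 to 153.4 CPM) overlapped. Such intervals cover counting error only, and libraries of a single mouse spread far more widely, from 4.35 to 496.2 CPM with a median of 110 CPM over the 80 libraries of the barcoded male.

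*Prss16* was at 2494 CPM at E16.5 and 5067 CPM at P0. The 4 wild-type P28 mice had 205.5, 672.7, 853 and 1425 CPM (789 ± 504 CPM, SD, n = 4), and the 1-year mouse 689 CPM. As for *Psmb11*, the perinatal mice were above the range at P28 and the 1-year mouse was inside it. *Ctsl*, the cathepsin, was at 4752 CPM at E16.5 and 10585 CPM at P0. It was at 573, 2128, 2110 and 2130 CPM in the wild-type P28 mice (1735 ± 775 CPM, SD, n = 4) and at 1983 CPM at 1 year. The 3 split-volume P28 mice had overlapping counting intervals, whereas the whole-volume male stood apart below them.

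**Figure D1:**
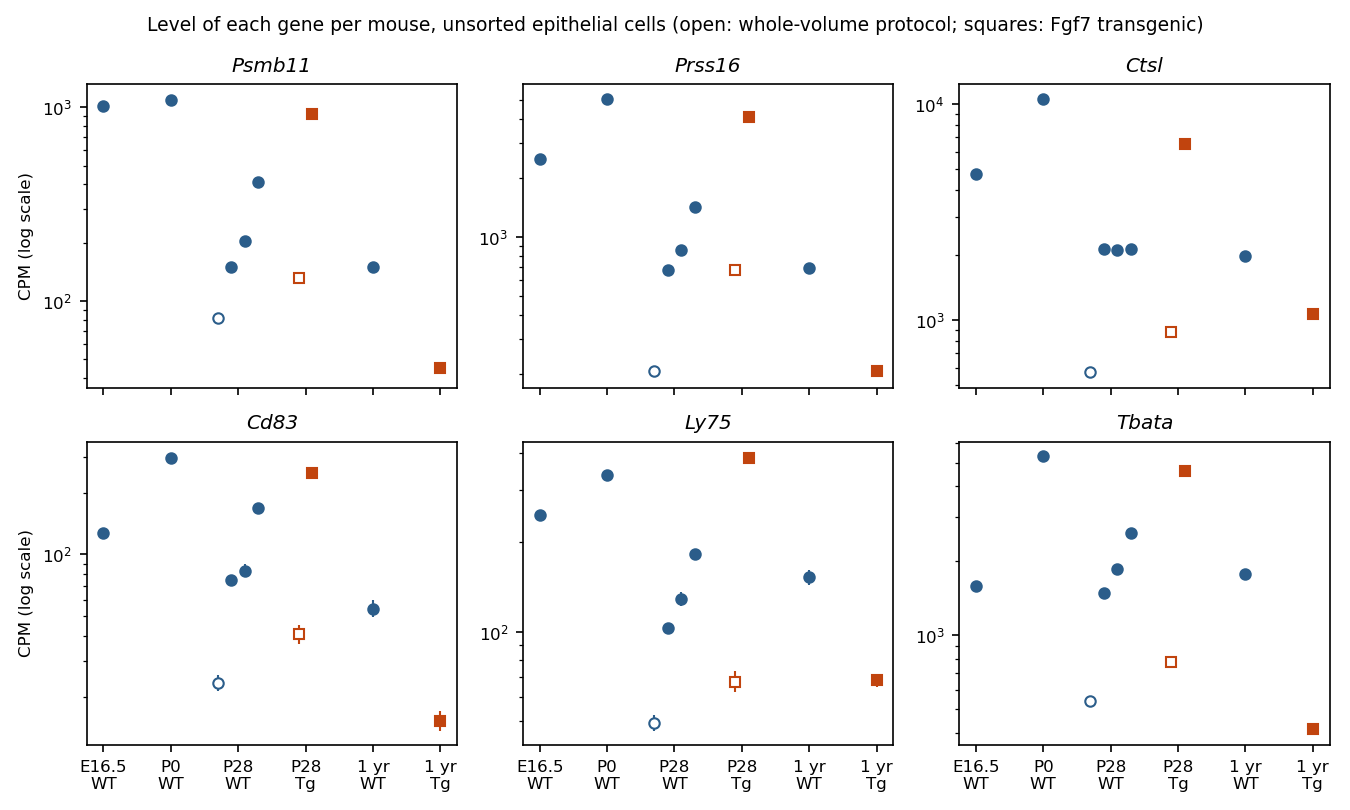
Level of each of the 6 genes (CPM, log axis) in the unsorted cells of each of the 10 mice, by age and genotype; open symbols mark the whole-volume protocol, squares *Fgf7* transgenic mice, and bars exact 95% Poisson intervals, most of which are smaller than the symbols. For *Psmb11* the E16.5 and P0 mice (1016 and 1098 CPM) sit above all wild-type P28 mice (81.8 to 413 CPM), and the non-barcoded male is the lowest wild-type mouse for every gene.

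*Cd83* RNA was less abundant and reached 127.3 CPM at E16.5 and 296.3 CPM at P0. The P28 mice had 23.4, 74.6, 83.4 and 169.2 CPM (87.7 ± 60.5 CPM, SD, n = 4) and the 1-year mouse 54.2 CPM. Only the P0 mouse, not the E16.5 mouse, lay above female B. *Ly75* was at 248.2 CPM at E16.5 and 338 CPM at P0. Its levels at P28 were 49.05, 102.7, 129.1 and 183 CPM (115.9 ± 55.7 CPM, SD, n = 4), with 152.6 CPM at 1 year. Both perinatal mice lay above all P28 mice. *Tbata*, like *Cd83*, was not above the P28 mice at E16.5, where its 1580 CPM lay within the range at P28 (540, 1476, 1857 and 2581 CPM, mean 1613 ± 850 CPM, SD, n = 4). It was at 5293 CPM at P0 and at 1769 CPM at 1 year. From E16.5 to P0 the level of *Tbata* was 3.35-fold higher, that of *Cd83* 2.33-fold, *Ctsl* 2.23-fold, *Prss16* 2.03-fold, *Ly75* 1.36-fold and *Psmb11* 1.08-fold, in 1 mouse at each age and therefore without a test. Without the non-barcoded male, the P28 means were 255.5 ± 138.9 CPM (*Psmb11*), 983 ± 393 CPM (*Prss16*), 2123 ± 11.1 CPM (*Ctsl*), 109.1 ± 52.3 CPM (*Cd83*), 138.2 ± 40.9 CPM (*Ly75*) and 1971 ± 561.2 CPM (*Tbata*; SD, n = 3).

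Ages were compared with edgeR on transcripts summed per mouse, with a term for the protocol. This term cannot be told apart from the barcoding transgenes, which only the whole-volume mice lacked. With 1 mouse at each of the other ages, the spread came from the P28 mice (3 residual degrees of freedom), and the lone mouse was assumed to vary like them. In such sums, fewer cells of a type and less RNA per cell cannot be told apart. At P0, 6 of the 6 genes were higher than at P28, in a comparison in which 6.53% of 22471 genes were called higher, 8.32% lower and 14.9% in either direction. Log2 fold changes were 2.26 (s.e. 0.46) for *Psmb11*, 2.61 (s.e. 0.32) for *Prss16*, 2.48 (s.e. 0.24) for *Ctsl*, 1.68 (s.e. 0.37) for *Cd83*, 1.46 (s.e. 0.32) for *Ly75* and 1.63 (s.e. 0.29) for *Tbata*. Adjusted p-values lay between 0.00461 (*Ctsl*) and 0.0294 (*Cd83*). The median log2 fold change of the 6 genes was 1.97, beside -0.23 over all genes tested. Without the term for the protocol, no gene of the 6 passed the threshold of 0.05 (adjusted p = 0.0906 to 0.18). Without the barcoded male, *Psmb11* (adjusted p = 0.0532), *Cd83* (0.0667) and *Ly75* (0.0601) missed it, and so did they without female A (0.0578, 0.0654 and 0.069) and *Ly75* without female B (0.0519). Without the non-barcoded male all 6 stayed called (adjusted p = 0.000633 to 0.016). Medullary genes moved with this change. A list of 8 *Aire* stage genes summed to 907 CPM at P0 and 550 CPM at E16.5, against 5258 to 11562 CPM in the wild-type P28 mice, and 6 medullary or basal genes to 2372 and 1601 CPM, against 4248 to 5852 CPM. No gene of either list was at 0, and their part in the age differences was not tested.

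At E16.5, 4 of the 6 genes were higher than at P28, beside 13.1% of all genes called higher, 16.4% called lower and 29.5% called in either direction. These were *Psmb11* (log2 fold change 2.18, s.e. 0.47, adjusted p = 0.0151), *Prss16* (1.62, s.e. 0.33, adjusted p = 0.0136), *Ctsl* (1.36, s.e. 0.25, adjusted p = 0.0102) and *Ly75* (1.04, s.e. 0.33, adjusted p = 0.0474). For *Cd83* the log2 fold change was 0.49 (adjusted p = 0.349) and for *Tbata* -0.09 (adjusted p = 0.843). The call of *Ly75* was lost with library-size scaling in place of TMM (adjusted p = 0.155), without the barcoded male (0.0807), without female A (0.0974) and without female B (0.0576). Without the term for the protocol, no gene of the 6 passed (adjusted p = 0.0765 for *Psmb11* and higher for the others). The sign of *Tbata* turned with the protocol term left out (log2 fold change 0.26).

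Between 1 year and P28, edgeR called 0 of the 6 genes, DESeq2 called 0 as well (of all genes, 2.79% higher, 2.1% lower and 4.9% in either direction), and 0 had an unadjusted p under 0.05. Over all genes, 0.378% were called higher, 0.0134% lower and 0.392% in either direction. Log2 fold changes were -0.83 for *Psmb11*, -0.49 for *Prss16*, -0.15 for *Ctsl*, -0.99 for *Cd83*, 0.09 for *Ly75* and -0.17 for *Tbata*, with standard errors of 0.27 to 0.54 and adjusted p-values of 0.386 to 0.934. The smallest unadjusted p was 0.0556 for *Cd83*. In simulated counts of this comparison, 50.7% of genes changed 4-fold and 2.99% of those changed 2-fold were recovered, so that changes of the size fitted here were mostly below what 1 mouse against 4 can show. In the 1-year mouse 4 parathyroid genes summed to 25923 CPM, against 593.5 to 891 CPM in the P28 mice, and 6 fibroblast genes to 1630 CPM, against 126.3 to 280.4 CPM, with no gene of either list at 0. Their part in this comparison was not tested.

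At P28, the genotype comparison asks whether *Fgf7* made by TECs alters the 6 genes. The transgenic male of the whole-volume protocol and the transgenic female of the split-volume protocol had 130.9 and 925 CPM of *Psmb11*, 680 and 4088 CPM of *Prss16*, and 879 and 6497 CPM of *Ctsl*. For the other genes these were 40.7 and 250 CPM (*Cd83*), 67.8 and 385.3 CPM (*Ly75*), and 779 and 4618 CPM (*Tbata*). The pair of transgenic mice thus differed from each other 5.68-fold to 7.39-fold, more than any ratio between the genotypes within a protocol. The female lay above all 3 split-volume wild-type mice for each of the 6 genes, and the male above the whole-volume wild-type male but below at least 1 split-volume wild-type mouse for each gene. In the fit, libraries of the whole-volume protocol were lower than the others for all 6 genes, by log2 differences of -1.90 (*Ly75*) to -2.40 (*Prss16*). The mice of this protocol were also the only ones without the barcoding transgenes, and both are labelled male. In this term the protocol therefore cannot be told apart from the transgenes or from these animals.

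edgeR called 2 of the 6 genes higher in transgenic than in wild-type P28 mice, beside 0.521% of all genes called higher, 0.0623% called lower and 0.583% called in either direction. *Prss16* had a log2 fold change of 2.09 (s.e. 0.27, adjusted p = 0.024) and *Ctsl* one of 1.38 (s.e. 0.20, adjusted p = 0.0339). The other 4 had 1.57 (*Psmb11*, adjusted p = 0.139), 1.21 (*Cd83*, 0.164), 1.25 (*Ly75*, 0.0962) and 1.12 (*Tbata*, 0.101). The median over the 6 genes was 1.32, beside -0.09 over all genes. DESeq2 called all 6 (adjusted p = 0.0183 for *Cd83*, the largest), beside 3.09% of all genes called higher, 2.58% lower and 5.68% in either direction. Within the split-volume protocol, the transgenic female over the mean of the 3 wild-type mice gave ratios of 3.62 (*Psmb11*), 4.16 (*Prss16*), 3.06 (*Ctsl*), 2.29 (*Cd83*), 2.79 (*Ly75*) and 2.34 (*Tbata*). Within the whole-volume protocol, 1 mouse over 1 mouse gave 1.60, 3.31, 1.53, 1.74, 1.38 and 1.44 in the same order. In this pair of males genotype cannot be told apart from the background label (FVB/N backcrossed against C57BL/6). The split-volume ratios set a female against wild-type mice of both sexes. Both calls were lost without the transgenic female (adjusted p = 0.396 for *Prss16* and 0.471 for *Ctsl*), without the barcoded wild-type male (0.0763 and 0.139), without wild-type female A (0.0788 and 0.0994) and without the term for the protocol (0.88 and 0.945), and that of *Ctsl* also without wild-type female B (0.124). Without the non-barcoded wild-type male, both remained called and *Psmb11* (adjusted p = 0.0342), *Ly75* (0.0187) and *Tbata* (0.0297) passed as well. That fit has the transgenic male as its only whole-volume mouse, whose values the protocol term takes up, and so compares 1 transgenic female with 3 wild-type mice. The *Aire* stage list summed to 2041 CPM in the transgenic female, against 9580 to 11562 CPM in the split-volume wild-type mice, and to 6720 CPM in the transgenic male, against 5258 CPM in the whole-volume wild-type male. The medullary or basal list was at 3518 CPM in the female, against 4522 to 5852 CPM, and at 2463 CPM in the male, against 4248 CPM. No gene of either list was at 0, and their part in the genotype differences was not tested.

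At 1 year, the transgenic mouse had lower levels of all 6 genes than the wild-type mouse. *Psmb11* was at 44.9 CPM (95% Poisson interval 42.02 to 47.8) against 150 CPM, *Prss16* at 206.3 CPM (200 to 213) against 689 CPM, and *Ctsl* at 1068 CPM (1054 to 1083) against 1983 CPM. *Cd83* was at 15.2 CPM (13.6 to 17) against 54.2 CPM, *Ly75* at 68.4 CPM (64.9 to 72.1) against 152.6 CPM, and *Tbata* at 416.6 CPM (408 to 425) against 1769 CPM. No counting interval overlapped that of the other mouse, and the ratios ran from 0.235 (*Tbata*) to 0.539 (*Ctsl*). With 1 mouse in each group there is no test, and genotype cannot be told apart from sex (male and female). The least number of transcripts required of a cell differed too (3000 and 1000), and these levels are not given at a common minimum. A list of 4 parathyroid genes summed to 25923 CPM in the wild-type and 1980 CPM in the transgenic mouse, with none of the 4 at 0 in either, and its part in these levels was not tested.

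Among the fits, that of Ly51+ against unsorted cells at P28 gave the largest log2 fold change of each of the 6 genes. In Ly51+ cells, *Psmb11* was at 1193, 2177 and 2815 CPM in the non-barcoded male and females A and B, against 81.8, 204.5 and 413 CPM in their unsorted cells. *Prss16* was at 6033, 9248 and 9539 CPM against 205.5, 853 and 1425 CPM, and *Ctsl* at 5355, 14414 and 11661 CPM against 573, 2110 and 2130 CPM. In every mouse and for each of these genes the Ly51+ cells were higher, by 5.47-fold to 29.4-fold. *Cd83* was at 331.2, 930 and 1206 CPM in Ly51+ cells, *Ly75* at 744, 853 and 952 CPM, and *Tbata* at 4865, 11920 and 13809 CPM, which were 5.20-fold to 15.2-fold above the unsorted cells of the same mice. The Ly51+ and unsorted groups did not overlap for any of the 6 genes.

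With the mouse as a block, edgeR called 6 of the 6 genes higher in Ly51+ cells, beside 11.8% of 15687 genes called higher, 21.5% called lower and 33.3% called in either direction. The log2 fold changes were 3.37 (s.e. 0.23) for *Psmb11*, 3.69 (s.e. 0.42) for *Prss16*, 2.83 (s.e. 0.20) for *Ctsl*, 3.40 (s.e. 0.22) for *Cd83*, 3.02 (s.e. 0.31) for *Ly75* and 2.78 (s.e. 0.20) for *Tbata*. Adjusted p-values were 0.000491 (*Cd83*) to 0.00245 (*Prss16*). The median of the 6 was 3.19, beside -0.07 over all genes. All 6 stayed called when any 1 mouse was left out. A list of 12 thymocyte genes summed to 347.01, 1926 and 2566 CPM in Ly51+ cells and to 117.6, 217.8 and 1078 CPM in unsorted cells of the same mice, with no gene of the list at 0. Medullary genes were lower, with the *Aire* stage list at 218.1, 1128 and 776 CPM against 5258, 11562 and 9675 CPM (*Aire* and *Csn2* at 0 in Ly51+ cells of the male) and the medullary or basal list at 1786, 2090 and 1750 CPM against 4248, 5852 and 4522 CPM. The part of these lists in the differences was not tested.

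At 1 year, Ly51+ cells had 587 CPM of *Psmb11* (95% Poisson interval 548 to 628.1), 4540 CPM of *Prss16* (4430 to 4652), 7778 CPM of *Ctsl* (7635 to 7924), 338 CPM of *Cd83* (308 to 369), 675.3 CPM of *Ly75* (634 to 719) and 8722 CPM of *Tbata* (8570 to 8876). All were above the unsorted cells of the same mouse, 3.92-fold for *Psmb11* and *Ctsl* and up to 6.59-fold for *Prss16*. *Psmb11* and *Ly75* in these cells were below the Ly51+ cells of all 3 P28 mice, as was *Prss16*, whereas *Ctsl* and *Tbata* were above those of the non-barcoded male and below both females. The medullary or basal list was at 6532 CPM in these Ly51+ cells, against 1750 to 2090 CPM in those at P28, the fibroblast list at 1048 CPM, against 84.7 to 507.2 CPM, and the parathyroid list at 471 CPM, against 0.294 to 94.1 CPM. Of the parathyroid genes *Gcm2* was at 0 in all of these Ly51+ samples, and of the fibroblast genes *Lum* was at 0 at 1 year, and 0, 1 and 4 genes were at 0 at P28. The part of these lists was not tested. The *Cd83* intervals of the 1-year mouse and the non-barcoded P28 male (312.2 to 351.1 CPM) overlapped, as did their *Ly75* intervals (715.4 to 773.6 CPM in this male).

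UEA-1+ cells were measured in 1 mouse at each of 2 ages. At P0 they had 55.4 CPM of *Psmb11* (95% Poisson interval 49.4 to 61.8), 245 CPM of *Prss16* (232.3 to 258), 1315 CPM of *Ctsl* (1285 to 1345), 48.3 CPM of *Cd83* (42.7 to 54.3), 20.2 CPM of *Ly75* (16.7 to 24.3) and 761 CPM of *Tbata* (738 to 784). These were 6.14-fold (*Cd83*) to 20.7-fold (*Prss16*) below the unsorted cells of that mouse. The *Aire* stage list was at 12992 CPM in these UEA-1+ cells against 907 CPM in unsorted cells, with no gene at 0, and 9 genes of dendritic cells or macrophages at 627.03 against 70.6 CPM, with *Cd209a* at 0 in unsorted cells, and their part was not tested. At P28, in the non-barcoded male, the 6 genes did not move together. *Psmb11* (24.1 CPM, interval 17.4 to 32.4), *Prss16* (63.3 CPM, 52.2 to 76.1) and *Cd83* (4.48 CPM, 1.94 to 8.83) were 3.25-fold to 5.21-fold below the unsorted cells. *Ly75* was at 35.9 CPM (27.6 to 45.8) against 49.05 CPM. *Tbata* was at 548 CPM (515 to 584) against 540 CPM (530 to 550), within each other's counting error. *Ctsl* was at 869 CPM (826 to 913) in UEA-1+ cells against 573 CPM (562.9 to 584) in unsorted cells. Its counting intervals did not overlap, but its libraries did, with 639 to 1256 CPM in UEA-1+ and 230.5 to 1343 CPM in unsorted libraries.

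**Figure D2:**
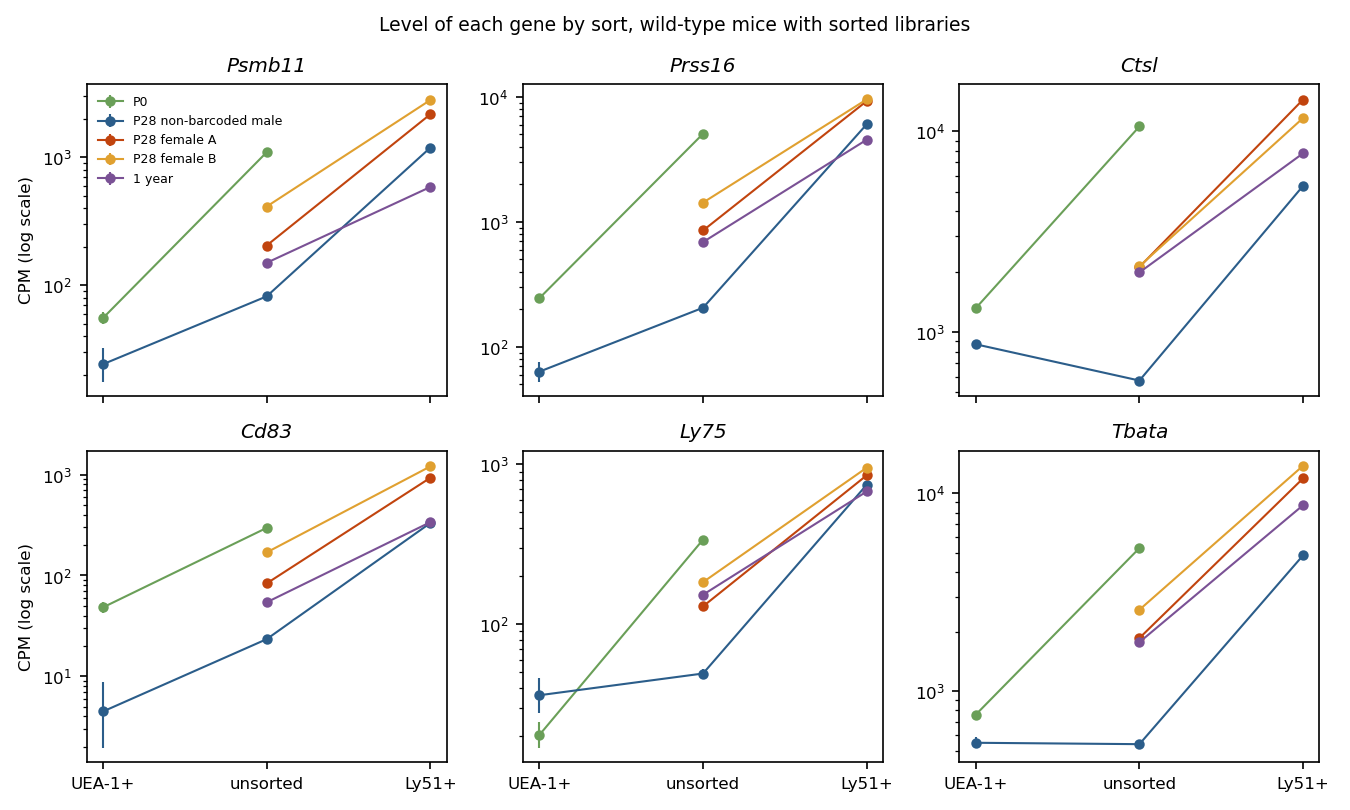
Level of each of the 6 genes (CPM, log axis) in UEA-1+, unsorted and Ly51+ cells of the 5 wild-type mice with sorted libraries; each line joins the sorts of 1 mouse and bars are exact 95% Poisson intervals. Every line rises from unsorted to Ly51+ cells, while in the P28 male *Ctsl* is higher in UEA-1+ cells (869 CPM) than in unsorted cells (573 CPM).

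Detection in single cells was compared after thinning each cell to 1000 UMIs, which kept 23939 cells and left out 1215 with fewer. *Psmb11* was then seen in 53.1% of cells at E16.5 (exact 95% binomial interval 51.1 to 55.1), 54.97% at P0, and 6.02%, 6.55%, 8.31% and 13.6% in the 4 wild-type P28 mice. The share was 7.63% at 1 year, 36.9%, 71.3% and 75% in Ly51+ cells at P28, and 0.769% in UEA-1+ cells at P28 (2 of 260 cells). Without thinning, the shares were 88.5% at E16.5 and 16.7% to 32.4% in the P28 mice.

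*Prss16* was seen in 78.6% of cells at E16.5, 92.3% at P0, 4.83% to 36.97% in the wild-type P28 mice (21.8% ± 13.5, SD, n = 4) and 27.4% at 1 year. *Ctsl* was seen in 93.1% of cells at E16.5, 98.2% at P0, 46.8% ± 14.4 (SD, n = 4) at P28 and 68.3% at 1 year. For *Tbata* the shares were 57.2% at E16.5, 87.5% at P0, 44.3% ± 18.5 (SD, n = 4) at P28 and 52.6% at 1 year. *Ctsl* was thus the most widely detected at each age, at P28 only in the mean, since female B had *Tbata* in 61.4% and *Ctsl* in 50.4% of cells. *Cd83* was seen in 11.2%, 20.6%, 4.09% ± 2.51 (SD, n = 4) and 3.14% of cells, and *Ly75* in 20.9%, 28.1%, 7.70% ± 3.11 (SD, n = 4) and 11.6%, in the same order of ages. In UEA-1+ cells of the P28 male, *Cd83* was seen in 0 of 260 cells after thinning, which allows a share of up to 1.41% of cells with a UMI at this depth. It limits no share of cells that express the gene, and without thinning *Cd83* was seen in 2.26% of these cells. In the whole-volume and split-volume transgenic P28 mice, *Psmb11* was seen in 5.43% and 33.1% of cells, *Prss16* in 12.6% and 75.3%, and *Ctsl* in 24.9% and 91.03%. Without the non-barcoded male, the wild-type P28 shares were 9.49% (*Psmb11*), 27.4% (*Prss16*), 53.8% (*Ctsl*), 5.08% (*Cd83*), 8.96% (*Ly75*) and 52.7% (*Tbata*).

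Cells in which a gene was seen also differed in how much of it they held. Per cell with the gene, *Psmb11* had 2.099 UMIs at E16.5, 2.01 at P0 and 1.54 ± 0.21 (SD, n = 4) at P28, of 1000 in the cell. For *Prss16* these were 3.40, 5.35 and 2.43 ± 0.33 UMIs, and for *Ctsl* 5.35, 10.5 and 2.73 ± 0.46 UMIs. For these 3 genes the perinatal values lay above those of the unsorted cells of all 4 P28 mice. For *Tbata* this held at P0 (5.70 UMIs) but not at E16.5, where 3.04 UMIs lay within the P28 range of 2.39 to 3.102. For *Cd83* (1.25, 1.32 and 1.29 ± 0.07 UMIs) and *Ly75* (1.20, 1.23 and 1.19 ± 0.07 UMIs), most cells with the gene held a single UMI at every age, so that the amount per cell could not be resolved. In Ly51+ cells of the non-barcoded P28 male and females A and B, *Psmb11* had 2.16, 2.86 and 3.17 UMIs per cell with it. *Prss16* had 6.56, 9.49 and 9.17 UMIs there, and *Ctsl* 4.82, 14.5 and 11.1 UMIs. Apart from *Ctsl* in the male, these were above the perinatal values of unsorted cells. The part of cells with a single UMI in the unsorted P28 values was not tested.

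The number of the 6 genes seen in a cell was then counted. At least 3 of the 6 were detected in 67.9% of cells at E16.5 (95% binomial interval 66 to 69.7), 89.2% at P0 (87.5 to 90.8) and 21.9% at 1 year (19.9 to 24). In the wild-type P28 mice the shares were 2.26%, 12.7%, 17.1% and 25.8%, and in Ly51+ cells of 3 of these mice 56.1%, 96.5% and 97.6%. None of the 6 was detected in 13.96% to 52.6% of unsorted wild-type P28 cells, but in 0.295% of cells at P0. The shares of the single genes, taken as independent, would give at least 3 genes in 74.6% of cells at E16.5, 94.04% at P0, 18.7% at 1 year, and 1.06%, 9.10%, 16.2% and 23.7% in the wild-type P28 mice. The shares seen were thus below these at E16.5 and P0 and above them at P28 and 1 year. The side depends on the cut at 3 genes. Cells held a mean of 3.14 and 3.82 of the genes at E16.5 and P0, but 0.611 to 1.81 in the wild-type P28 mice and 1.71 at 1 year. Where the mean lies above 3, genes that go together can give fewer cells with at least 3, so that no avoidance is read from the lower shares. All 6 were found together in 5.45% of cells at P0, in 31.5% of Ly51+ cells of female B and in 0.179% to 1.42% of unsorted wild-type P28 cells. UEA-1+ cells had at least 3 genes in 8.07% of cells at P0 and 1.15% at P28.

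In transgenic mice at P28, 5.62% of cells of the whole-volume male and 68.8% of the split-volume female had at least 3 of the genes, where independent detection would give 1.67% and 75.8%. Cells of the male held a mean of 0.684 of the genes and those of the female 3.14, so that the same limit of the cut holds here. The transgenic mean of 37.2% ± 44.7 (SD, n = 2) and the wild-type mean of 14.5% ± 9.79 (SD, n = 4) differed by 22.8 percentage points (two-sided exact permutation test over mice, p = 0.333, where 15 arrangements allow no p below 0.0667). This test exchanged mice between the protocols. Each transgenic mouse was above the wild-type mouse or mice of its own protocol. The difference turned to -8.83 percentage points without the transgenic female, and was 18.7 points without the non-barcoded wild-type male. At 1 year the share was 3.92% in the transgenic and 21.9% in the wild-type mouse.

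**Figure D3:**
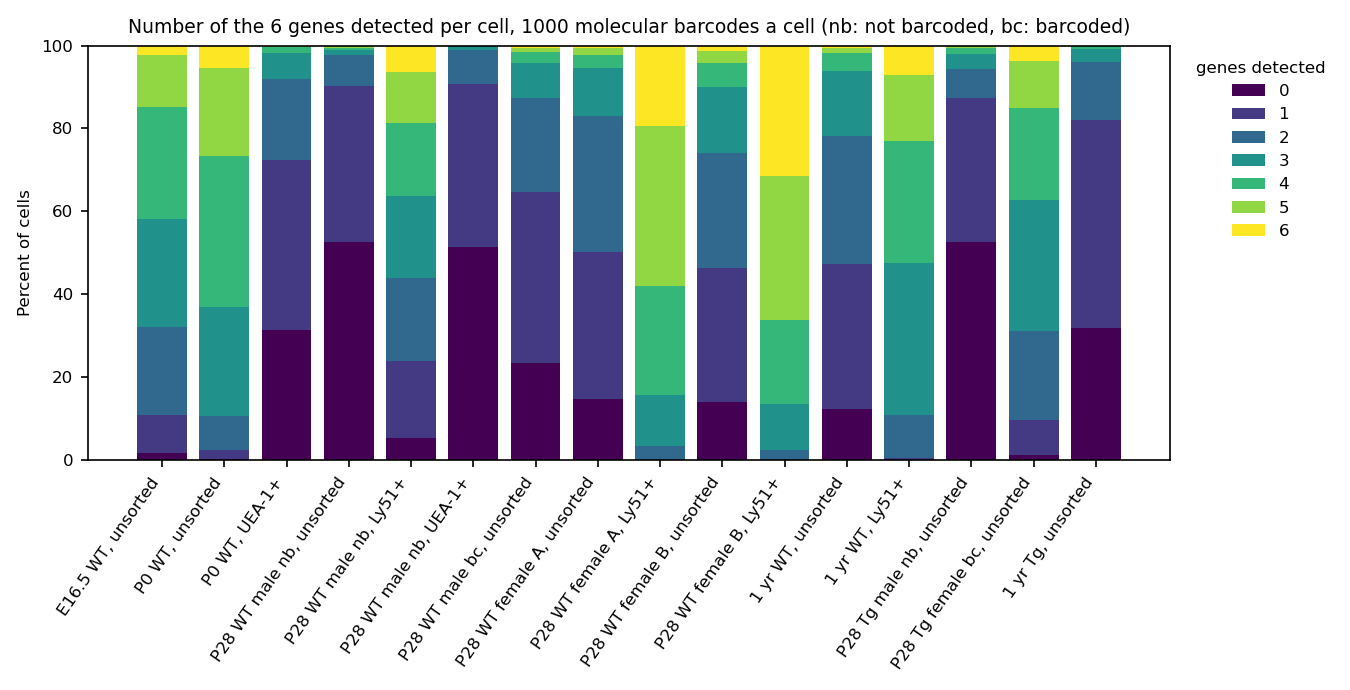
Percent of cells in which 0 to 6 of the 6 genes were detected, in cells thinned to 1000 molecular barcodes (UMIs), for every mouse and sort; bars are stacked to 100%, nb stands for not barcoded and bc for barcoded. Cells with at least 3 genes make up 89.2% of cells at P0 and 97.6% of Ly51+ cells of female B, but 2.26% to 25.8% of unsorted wild-type P28 cells.

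To see which cells hold the 6 genes, cells were grouped by markers that include none of them. A cell was said to hold a list when at least 2 of its genes and 3 UMIs were seen. The cortical niche list held *Foxn1*, *Ccl25*, *Cxcl12*, *Dll4*, *Kitl*, *Il7*, *Enpep*, *Pax1*, *Bmp4* and *Scx*, factors that cTECs use to attract, feed and instruct thymocytes, and transcription factors of the thymus. Its cells were 68.1% of cells at E16.5, 78.4% at P0, 3.87%, 8.14%, 13.5% and 15.8% in the wild-type P28 mice, 17.4% at 1 year, 8.67% and 53.4% in the whole-volume and split-volume transgenic P28 mice, and 6.52% in the transgenic mouse of 1 year. In unsorted wild-type P28 cells that held the list (957 cells), *Psmb11* was at 0.71 ± 0.20 UMIs per 1000, *Prss16* at 2.80 ± 0.63, *Ctsl* at 4.66 ± 1.11, *Cd83* at 0.25 ± 0.08, *Ly75* at 0.31 ± 0.07 and *Tbata* at 4.62 ± 0.87 (mean and SD of 4 mice). In cells with tuft cell markers and without niche markers (at least 39 cells in each mouse), the same genes were at 0.07, 0.20, 0.49, 0.03, 0.04 and 0.60 UMIs. Each gene was therefore higher in niche-marker cells in these means, but *Psmb11* was still seen in 6.62% of tuft-marker cells, a cell type that should lack it, beside 8.62% of all cells and 30.97% of niche-marker cells, all at the same 1000 UMIs. By mouse, the tuft-marker share was 4.79% in the non-barcoded male, 4.62% in the barcoded male, 4.26% in female A and 12.8% in female B, below the 6.02%, 6.55%, 8.31% and 13.6% over all cells of the same mice but close to it in the non-barcoded male and female B. In the transgenic male the share was 5.43% over all cells and 5.88% of its tuft-marker cells, which at 17 cells are too few to set a background. Its 15 cells with at least 2 UMIs of *Psmb11* held *Prss16* in 100% of cases, against 11.3% of its other cells. No order of the P28 mice is read from shares of this size. *Prss16* was seen in 16.6%, *Ctsl* in 32.01% and *Tbata* in 35.6% of tuft-marker cells, beside 21.8%, 46.8% and 44.3% of all cells. In *Aire* stage cells without niche markers (6139 cells) these shares were 18.4%, 41.2% and 47.2%, so that *Tbata* was above its share of all cells. In cells with parathyroid markers (87 cells of 2 mice, niche markers not excluded) they were 46.97%, 59.03% and 72.6%. Niche-marker cells had 53.1%, 71.9% and 71.3%. The shares, the counts of genes per cell and the pairs at P28 include the UMIs of tuft-marker, *Aire* stage and parathyroid-marker cells. Whether these UMIs were stray or made by the cells was not tested. At least 3 of the genes were seen in 47.9% ± 12.9 of niche-marker cells, 9.61% ± 9.56 of tuft-marker cells and 11.1% ± 7.71 of cells with markers of the *Aire* stage and none of the niche (SD, n = 4).

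Within niche-marker cells, the amount of each gene still differed between mice. *Psmb11* was at 1.46 UMIs per 1000 at E16.5 and 1.29 at P0, against 0.615, 0.772, 0.495 and 0.947 in the wild-type P28 mice, 0.280 in the wild-type and 0.238 in the transgenic mouse of 1 year. The perinatal mice were thus above, and both 1-year mice below, all P28 mice in this class. In unsorted cells the fibroblast list was at 1630 CPM in the wild-type and 757 CPM in the transgenic mouse of 1 year, against 126.3 to 280.4 CPM in the wild-type P28 mice. Its part in this class was not tested. *Ctsl* was at 5.89 UMIs at E16.5 and 11.4 at P0, against 3.43 to 6.13 in the wild-type P28 mice. In the transgenic P28 mice the class held 0.571 (whole-volume) and 1.003 UMIs (split-volume) of *Psmb11*, the first below and the second above the wild-type mouse or mice of the same protocol. *Prss16* was at 3.07 and 4.70 UMIs, both above the wild-type values of their protocol. *Ctsl* was above them in the split-volume mouse (7.24 UMIs) but not in the whole-volume mouse (2.97 UMIs against 3.43), where *Cd83* (0.0659 against 0.185) and *Ly75* (0.154 against 0.215) were lower too. For *Tbata*, the values were 1.73 UMIs, below the wild-type range of 3.71 to 5.51, and 5.16 UMIs, within it. These classes rest on markers that themselves differ between ages and genotypes, and no test was made.

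**Figure D4:**
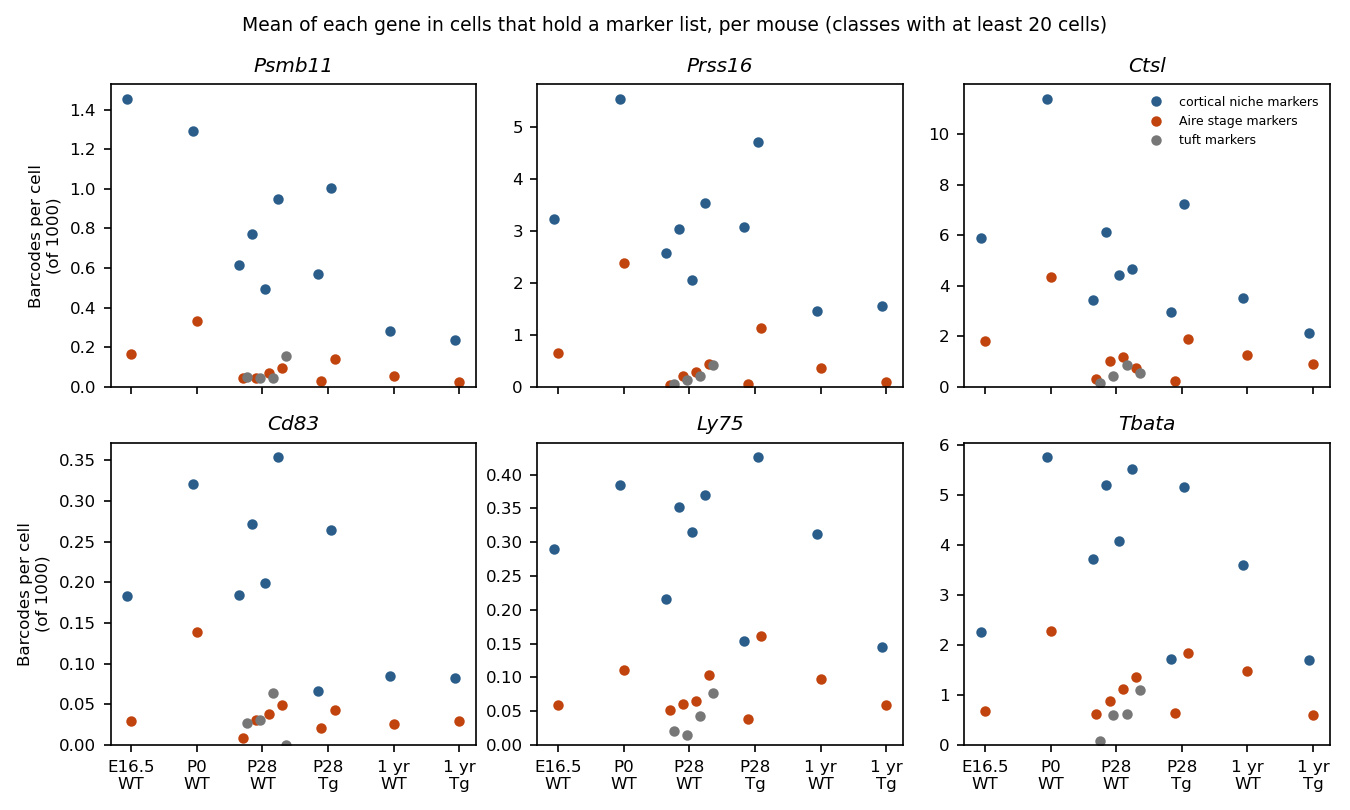
Mean UMIs per cell (of 1000) of each of the 6 genes in unsorted cells of each mouse, in cells that hold cortical niche markers (blue) and in cells that hold *Aire* stage (red) or tuft markers (grey) and no niche markers; only classes with at least 20 cells are drawn. In the wild-type P28 mice *Psmb11* lies between 0.495 and 0.947 UMIs in niche-marker cells and at or below 0.154 in the others.

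Pairs of genes were then compared within cells of a mouse. In the wild-type P28 mice, cells with at least 1 UMI of *Psmb11* also held *Prss16* in 19.8%, 53.9%, 55.1% and 67.6% of cases, against 3.87%, 16.7%, 23.5% and 32.1% of cells without *Psmb11*. Both genes together were found 2.71 ± 1.014 times as often as the product of their shares (SD, n = 4), with a Pearson correlation of log(1 + UMIs) of 0.48 ± 0.04 over the cells of a mouse. Cells with at least 2 UMIs of *Psmb11* (16, 79, 29 and 88 cells) held *Prss16* in 75%, 84.8%, 82.8% and 92.05% of cases, against 4.15%, 17.96%, 25% and 34.5% of the other cells. Cells with exactly 1 UMI of *Psmb11* held *Prss16* in 9.41%, 42.5%, 46.9% and 56.3% of cases. With at least 2 UMIs required of both genes, the ratio was 59.9 in the non-barcoded male (12 cells with both) and 13.1, 9.28 and 5.74 in the others, a mean of 22.01 ± 25.5 (SD, n = 4) with and 9.37 ± 3.67 (SD, n = 3) without this male. Cells with at least 1 UMI of *Psmb11* held 7.55-fold to 25.8-fold more *Prss16* than the other cells of the same mouse, and 6.95-fold to 12.01-fold more *Cd83*. The ratio to the product of shares was highest for *Psmb11* with *Cd83* (4.23 ± 0.82) and for *Prss16* with *Cd83* (3.43 ± 2.82), and lowest for *Ctsl* with *Tbata* (1.05 ± 0.02), the most widely detected genes of the 6. The second place rests on the non-barcoded male, without which the ratios were 3.89 for *Psmb11* with *Cd83*, 2.79 for *Psmb11* with *Ly75*, 2.74 for *Cd83* with *Ly75*, 2.25 for *Psmb11* with *Prss16* and 2.02 for *Prss16* with *Cd83*. The correlation was highest for *Psmb11* with *Prss16*, *Prss16* with *Tbata* (0.43) and *Prss16* with *Ctsl* (0.41), and lowest for *Ly75* with *Tbata*, *Ctsl* and *Cd83* (0.19 each). *Ly75* and *Cd83* were seen in only 7.70% and 4.09% of these cells, mostly with a single UMI. For them a low correlation cannot be told apart from low detection. *Prss16* had the highest correlation of the 6 with each of *Psmb11*, *Ctsl*, *Cd83*, *Ly75* and *Tbata*, as it had without the non-barcoded male. With rank correlation this held for all but *Cd83*, which was closer to *Psmb11* (0.196) than to *Prss16* (0.174).

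Where detection means at least 1 UMI, the ratio cannot pass the inverse of the larger of the shares, which for *Psmb11* and *Prss16* was 2.70 to 16.6 in the wild-type P28 mice, 1.27 at E16.5, 1.08 at P0 and 1.33 in the transgenic P28 female. *Psmb11* and *Prss16* were found together 1.10 times as often as the product of their shares at E16.5, 1.04 times at P0 and 1.012 times in Ly51+ cells of female B, although their correlation in these cells was 0.32, 0.37 and 0.51. In the transgenic female at P28 the ratio was 1.19 and the correlation 0.49, and in the older transgenic mouse (1 year) 4.35 and 0.40. These correlations describe cells that share library, depth and mouse, and were not tested.

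**Figure D5:**
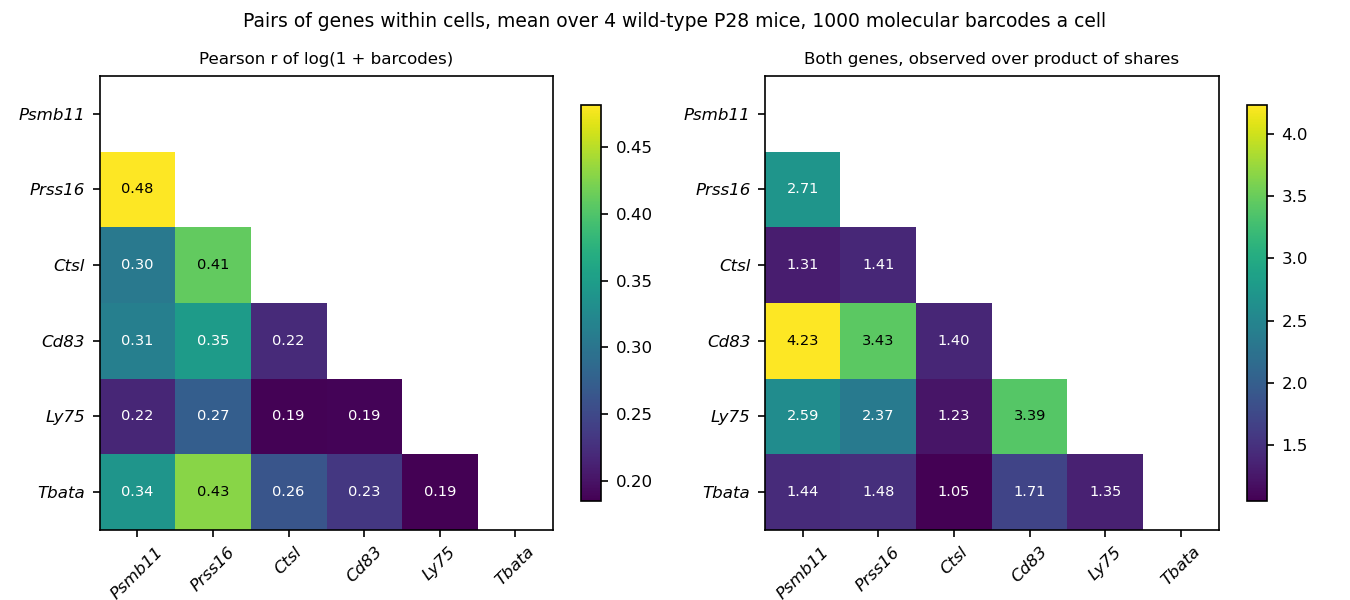
Pairs of the 6 genes within unsorted cells thinned to 1000 molecular barcodes (UMIs), as the mean over the 4 wild-type P28 mice of the Pearson correlation of log(1 + UMIs) (left) and of the share of cells with both genes over the product of their shares (right). *Psmb11* with *Prss16* has the highest correlation (0.48) and *Psmb11* with *Cd83* the highest ratio (4.23).

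Among 5974 other genes detected in at least 2% of these cells in each of the 4 mice, those closest to *Psmb11* by mean correlation were *Ccl25* (0.40), *Cxcl12* (0.37), *Isg20* (0.32), *Pithd1* (0.29) and *Crip3* (0.25). *Ccl25* and *Cxcl12* encode chemokines that attract T cell precursors. The same 5 genes were closest to *Prss16*, led by *Cxcl12* (0.47) and *Ccl25* (0.46). *Ccl25*, *Cxcl12*, *Pithd1* and *Isg20* were also among the 5 closest to *Cd83* and to *Ly75*, each time with *D930015E06Rik*. *Tbata* was closest to *Ccl25* (0.50), *Crip3* (0.43) and *Cstb* (0.31), a cystatin that inhibits cathepsins. Over these 4 mice *Ctsl* differed from the other genes, with *Slc46a2* (0.30), *Krt18* (0.29) and *Gas6* (0.28) between *Cxcl12* (0.39) and *Ccl25* (0.28). With rank correlation, 5 of the 5 genes were the same for *Psmb11* and *Prss16*, 4 for *Cd83* and *Ly75*, 3 for *Tbata* and 2 for *Ctsl*. Without the non-barcoded male, 5 of the 5 were the same for *Tbata* and 4 for each of the others.

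Other genes of antigen processing did not follow the 6 genes as a whole. In Ly51+ cells, where 11.8% of all genes were called higher and 21.5% lower, 10 of 14 constitutive proteasome subunits were higher than in unsorted cells (*Psmb4* by a log2 fold change of 1.62, *Psma5* by 1.00) and none was lower. Of 6 genes of the immunoproteasome and its activators, 2 were higher, among them *Psmb9* (1.39), and 3 were lower, with *Psme1* at -1.88 and *Psme2* at -1.42. Of 16 other lysosomal genes, 2 were higher and 8 lower, led by the cathepsins *Ctss* (-3.83), *Ctsh* (-3.64) and *Ctsz* (-3.26), opposite in direction to *Ctsl*. Of 10 tested MHC class II genes 1 was higher and 4 were lower (*H2-Ob* by -3.98), of 10 MHC class I loading genes 1 was higher and 5 were lower (*Nlrc5*, an activator of class I genes, by -1.88), and of 12 autophagy genes 4 were higher and 1 was lower. Of the 12 cortical niche genes with *Krt8* and *Krt18*, 10 were higher, led by *Cxcl12* (3.37) and *Ccl25* (3.02).

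At P0, where 6.53% of all genes were called higher and 8.32% lower, 10 of 14 constitutive subunits were higher than at P28. Of the 6 genes of the immunoproteasome and its activators 2 were higher, among them *Psmb10* (1.48), and *Psmb8* (-2.57) and *Psme1* (-2.33) were lower. Of 10 MHC class I loading genes 0 were higher and 3 lower (*Nlrc5* by -3.57), and of the 12 cortical niche genes 10 were higher (*Pax1* by 2.52) and 1 lower (*Scx* by -2.43). At E16.5, where 13.1% of all genes were called higher and 16.4% lower, 5 of 14 constitutive subunits were higher, again *Psmb10* (0.90) was higher and *Psmb8* (-4.61) and *Psme1* (-2.70) lower. Of the class I loading genes 0 were higher and 6 lower there (*Nlrc5* by -5.01), and of the cortical niche genes 10 were higher (*Pax1* by 2.77) and 0 lower. Of 11 MHC class II genes tested, 10 were lower at E16.5 (*H2-Ob* by -4.95, *H2-Oa* by -3.76) and 1 at P0, and of 16 other lysosomal genes 9 were lower at E16.5 and 7 at P0, with *Ctse* and *Ctss* among them at both ages, while *Ctsl* was higher at both ages. In transgenic P28 mice, 0 of 69 tested proteasome, lysosomal, MHC and autophagy genes were called by edgeR, although 16 had an unadjusted p under 0.05, beside 13.9% of all genes, and DESeq2 called 7, all higher, beside 3.09% of all genes called higher. Of these 12 cortical niche genes edgeR called 3 higher (*Cxcl12* by 2.59, *Pax1* by 1.55 and *Kitl* by 1.40), beside 0.521% of all genes called higher. The median log2 fold change of the 14 constitutive subunits was 0.37 there, with 14 of 14 above 0. At 1 year edgeR called 0 of the 69 genes (12 with an unadjusted p under 0.05, beside 13.4% of all genes, DESeq2 0) and, of the cortical niche genes, *Bmp4* (2.79), beside 0.378% of all genes called higher, while the median of the 14 constitutive subunits was -0.51, with 0 of 14 above 0.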

How the data were processed

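The values deposited by the authors are estimated counts (transcripts of each gene in each cell, 1 table a library), not normalized. Per the study's methods and the submitters' processing notes, base calls came from bcl2fastq (version 2.17.1.14), reads were aligned with BWA (version 0.6.2-r126) to gene models of mouse ENCODE VM9, sense reads were counted, reads with several alignments were discarded, and UMIs of 6 bases (4096 possible) were converted to transcripts by binomial statistics, so that highly expressed genes are corrected for UMIs used more than once. Counting by strand separates antisense genes. Part of the tables have the same content under another file format. A list of cell barcodes for the whole series was not used.

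Tables have 192 columns, of which a library occupies 96. These were accepted if they contained 80% or more of all transcripts (median 96.8%), and 2 of 380 libraries failed. Cells needed at least 3000 transcripts at E16.5, P0 and in transgenic mice of 1 year, 1500 at P28 and 1000 in the 1-year wild-type mouse, and at most 2% of transcripts from *Kcnq1ot1*, which removed 0 cells. Of 27972 cells over 1000 transcripts, 25154 were kept. Single cells were sorted into wells, and doublets were not called. The study puts wells with too many scars down to doublets or sequencing errors, and describes cTECs that enclose thymocytes. Such wells were not removed here, and their part in the pairs of genes was not tested. All libraries use the same well barcodes, so that shared barcodes are not shared cells. Samples were grouped by the labels for age, genotype, sex and sort. Libraries of 1 mouse were summed, since they are not replicates, and the 4 P28 wild-type and 2 P28 transgenic mice, as far as the labels tell animals apart, were the replicates.

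Transcripts summed per mouse and rounded were tested with edgeR (version 4.0.16; R 4.3.3, limma 3.58.1) by the quasi-likelihood test with TMM scaling, filterByExpr and Benjamini-Hochberg adjustment over all genes, at an adjusted p of 0.05. Age and genotype were fitted in 1 model over 10 mice with the protocol as covariate. Ly51+ and unsorted cells were compared in a model of 3 mice with the mouse as block, since the labels give both sorts to the same mice. For the non-barcoded male, whose libraries carry no animal number, this was not established. Correlations of the deviations of a mouse's sorts were 0.434 to 0.612, and those between different mice -0.579 to 0.313. DESeq2 (version 1.42.0), other scalings, no filter, no protocol term, UMIs in place of transcripts, other cell minimums and leaving out each P28 mouse were alternatives. Leaving out both whole-volume mice, and leaving the non-barcoded wild-type male out of the cell values, were added after seeing the data. Levels carry exact 95% Poisson intervals, shares exact 95% binomial intervals. Cells were thinned to 1000 UMIs with a fixed seed (7; 2000 UMIs and another seed as alternatives). Cell values and plots were made with pandas 2.3.3, scipy 1.17.1, numpy 2.4.6 and matplotlib 3.10.9 in Python 3.11.15. Gene limits came from GENCODE annotation of GRCm38.

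The 6 genes were named in every comparison. Of the other lists, the 3 genes called with the largest absolute log2 fold change in each were eligible to be named, and for each of the 6 genes the 5 others with the highest mean correlation. The 6 genes and the lists were chosen with earlier results of these data known. One gene of the cortical niche list is not reported here and was left out of the list and of its cell class. The tests were tried on simulated counts, with 200 genes changed. Of genes changed 4-fold, 56.7% were recovered for the genotype comparison (21135 genes), 61.2% for E16.5, 47.8% for P0, and 85.1% for Ly51+ (15258 genes).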

Additional observations from a re-analysis of the deposited data

Results flagged for a closer look

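Values that stood apart from the other mice of their group were looked for by Dixon's ratio in 34 groups of 4 mice, and 3 groups were found, where chance alone gives about 1 in 20. All concern the non-barcoded wild-type P28 male, the 1 whole-volume mouse among the 4. Its level of *Ctsl* was 573 CPM, while the other mice had 2110 to 2130 CPM. Its cells held *Prss16* and *Cd83* together 7.63 times, and *Cd83* and *Tbata* together 2.73 times, as often as the product of their shares, with 19 cells holding *Cd83*.

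At 1 year, the transgenic mouse lay below the wild-type mouse for all 6 genes, whereas at P28 each transgenic mouse lay above the wild-type mice of its own protocol. The ratios of transgenic to wild type at 1 year were 0.299 for *Psmb11*, 0.299 for *Prss16*, 0.539 for *Ctsl*, 0.281 for *Cd83*, 0.448 for *Ly75* and 0.235 for *Tbata*. With 1 mouse of each genotype at 1 year, the difference between the ages was not tested, and the genotypes differ there in sex and in the cell minimum as well.

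Columns of the tables that hold no sorted cell also contained transcripts, at 3.26% of those in the columns with cells over all genes. For the 6 genes the values were 2.20% (*Psmb11*), 3.17% (*Prss16*), 1.97% (*Ctsl*), 2.02% (*Cd83*), 2.05% (*Ly75*) and 3.24% (*Tbata*), none above that of all genes.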

How the results depend on the processing

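Over all alternatives, the values of the 6 genes lost a call 30 times, gained one 16 times and changed sign 10 times, and otherwise kept their direction and side of the threshold. No call was lost in Ly51+ cells. The sign changed for *Tbata* at E16.5 (log2 fold change 0.26 without the protocol term, and -0.25 to 0.070 on leaving out each P28 mouse, with 0.0012 without the transgenic female). At 1 year it changed for *Ctsl* (0.23 without the protocol term, 0.020 without both whole-volume mice, and -0.21 to 0.058 on leaving out each mouse, with 0.014 without the transgenic male), *Ly75* (-0.078 to 0.31 on leaving out each mouse) and *Tbata* (0.17 without the protocol term, and -0.33 to 0.012 on leaving out each mouse). The cause was not tested.

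The share of all tested genes that was called moved more. For genotype at P28 it was 0.583%, but 5.68% with DESeq2, 1.18% without a filter, 0.00445% without the protocol term, 10.1% without both whole-volume mice and 0.00879% to 9.80% on leaving out each P28 mouse. For E16.5 it was 29.5%, and 14.3% without the protocol term and 16.8% to 42.1% on leaving out each mouse, lowest without female B (16.8%) and the barcoded male (18.3%). For P0 it was 14.9%, and 26.8% with DESeq2, 2.34% without the protocol term, 29.95% without both whole-volume mice and 3.97% to 29.9% on leaving out each mouse. At 1 year it was 0.392%, and 4.90% with DESeq2, 0.783% without a filter, 0.142% without the protocol term, 3.74% without both whole-volume mice and 0.0730% to 3.70% on leaving out each mouse. In the genotype, P0 and 1-year comparisons the number of calls moved by over 1.5 times whichever of the 6 P28 mice was left out. For Ly51+ cells it was 33.3%, and 23.6% without the replicate block and 9.14% (without female B) to 42.7% on leaving out each mouse. The fit without the block changed no call of the 6 genes (edgeR adjusted p = 0.00621 to 0.0258). No paired analysis was possible for age and genotype because the groups hold different mice.

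With library-size scaling in place of TMM, the median log2 fold change of all genes went from -0.09 to -0.21 (genotype), -0.34 to -0.61 (E16.5), -0.23 to -0.41 (P0) and -0.15 to -0.19 (1 year). The share of called genes that were higher fell from 89.3% to 68.3%, 44.4% to 20.9%, 43.96% to 21.7% and 96.6% to 85.5%.

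Without the 4 libraries labelled as a biological replicate of the non-barcoded wild-type male, which alone of its unsorted libraries held *Xist* well above the level of males, no call of the 6 genes changed, and 1.85% of its cells in place of 2.26% had at least 3 genes. Shares of cells depended on depth. At 2000 UMIs a cell, *Psmb11* was seen in 13.5% of wild-type P28 cells, *Ctsl* in 61.7%, *Cd83* in 6.68% and *Ly75* in 13.7%. Without thinning the shares of *Psmb11*, *Prss16*, *Ctsl*, *Cd83*, *Ly75* and *Tbata* were 25.9%, 51.3%, 75.6%, 12.7%, 27.4% and 75.1%, and with at least 2 UMIs 2.23%, 7.54%, 24.5%, 0.743%, 1.21% and 22.3%. *Psmb11* and *Prss16* were found together 1.30 times as often as the product of their shares without thinning and 22.01 times with at least 2 UMIs (9.37 times without the non-barcoded male). The genotype difference in cells with at least 3 genes lay between -8.83 and 54.4 percentage points on leaving out each mouse. At 1 mouse per age, differences of 2-fold were mostly below what the design can show.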
